A study of Mus musculus with 40 samples.

Results

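The genes for several secreted growth factors, for endothelin 1 and for 2 matricellular proteins were followed across resting and LPS-treated bone marrow-derived macrophages (BMDMs) in which mitochondrial complex I was, or was not, inhibited. They are Edn1, Pdgfa, Pdgfb, Hbegf, Areg, Ereg, Igf1, Tgfb1, Thbs1 and Spp1, which are 10 of the 43430 genes counted. They were taken by symbol from a list that was chosen by a reading of earlier results of these same libraries, in which the lower Edn1 and Pdgfb of WT cells given LPS and the inhibitor piericidin A had been seen. That comparison, the same comparison in NDI1 cells, the difference between these effects, the genotypes compared with both agents, and the piericidin A effect in WT cells with against without LPS are therefore given as a description with no test. The effect of LPS and the genotypes compared with LPS alone share the LPS libraries with that comparison, and they are tested below with this overlap in place.

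The libraries came from BMDMs of 5 WT and 5 NDI1 mice, and each mouse gave 4 libraries, so 40 libraries fall into 8 groups of 5. NDI1 mice carry the yeast NADH dehydrogenase NDI1, which oxidizes NADH without pumping protons and is not blocked by complex I inhibitors, behind a lox-stop-lox cassette in the Rosa26 locus. It is switched on by Vav-iCre, which acts in all hematopoietic cells and not in macrophages alone, and the WT mice also carry Vav-iCre. The labels give the strain of both genotypes as C57/Bl6, and per the study's methods the NDI1 line was of mixed C57Bl/6J/N background. Each mouse gave untreated cells, cells exposed to piericidin A, a complex I inhibitor, at 500 nM, cells given ultrapure lipopolysaccharide (LPS, a ligand of TLR4) at 100 ng ml–1 for 4 h, and cells given piericidin A for 30 min and then LPS in its presence. All cells of both genotypes grew in medium with methyl-pyruvate and uridine. The study's methods name adult mice of both sexes for the study as a whole, not for single libraries. NDI1 reads were not analysed here, so the genotype labels were not checked against the transgene.

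As background, endothelin 1 is a vasoconstrictor peptide that is cut from a precursor by endothelin-converting enzymes and acts through the receptors Ednra and Ednrb. Activated macrophages are among its known sources. PDGF A and B chains form dimers that signal through Pdgfra and Pdgfrb on stromal cells. Heparin-binding EGF-like growth factor (Hbegf), amphiregulin (Areg) and epiregulin (Ereg) are membrane-anchored EGF family ligands that Adam17 releases. All act on Egfr, and Hbegf and Ereg also act on Erbb4. Igf1 is a survival and growth factor that macrophages secrete, Tgfb1 is an anti-inflammatory and profibrotic cytokine kept latent until it is released, Thbs1 (thrombospondin 1) can release latent Tgfb1, and Spp1 (osteopontin) is a ligand of integrins and Cd44.

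Libraries held 6950748 to 13552070 counts, and the macrophage markers Lyz2, Csf1r and Adgre1 led their list of 10, whose sum was 20301 to 39705 CPM (counts scaled to an equal library total after TMM normalization) in WT. All 4 libraries of WT mouse 496 and of NDI1 mouse 503 lay apart from the other 32 on the second principal component, and their 8 neutrophil markers summed to 544 to 3138 CPM against 15.1 to 194 in the others. Several values below are also given without these 2 mice. In such bulk libraries fewer cells of a type and less RNA per cell cannot be told apart. Fold changes, standard errors (SE) and p-values adjusted over all 11853 genes tested are from edgeR's quasi-likelihood test, with 0.05 as the threshold. Cells of one mouse were shared by all 4 treatments, so fits with the mouse as a block are given where they change a call. Overlap of groups and numbers of mice higher or lower are a description, since their share over all genes was not counted.

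Of the 10 genes, 8 had enough counts to be tested. Areg, with 0 to 17 counts in a group of 5 libraries, and Ereg, with 0 to 21, did not pass the filter. On the scale of CPM divided by the deposited exon length in kilobases (RPKM), which compares genes only roughly, untreated WT BMDMs held most Tgfb1 (101 ± 12.3 RPKM, SD, n = 5) and Spp1 (85.4 ± 20.5), followed by Thbs1 (46.1 ± 41.1), Igf1 (28.0 ± 14.2) and Pdgfb (19.9 ± 7.45). The deposited length of Spp1, 7441 bases, exceeds the span of the gene itself, 104435118 to 104441050. The RPKM of Spp1 is therefore too low, and whether it lies above Tgfb1 is not settled. For each pair of neighbours as listed the ranges of mean ± SD overlapped, and they were not tested against each other. Pdgfa (2.04 ± 0.58 RPKM) and Hbegf (0.15 ± 0.13) were far lower, and Areg (0.027 ± 0.059), Edn1 (0.013 ± 0.017) and Ereg (0 in all 5 libraries) were at or under a level of 3 counts per library. With LPS, Edn1 reached 48.0 ± 12.4 RPKM in WT, between Tgfb1 (106 ± 17.1) and Thbs1 (32.5 ± 18.1).

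In the deposited mm10 coordinates Edn1 (ENSMUSG00000021367) lies on chromosome 13 from 42301270 to 42307989 and Pdgfb (ENSMUSG00000000489) on chromosome 15 from 79995900 to 80014808. Pdgfa (138976014 to 138997370), Areg (91139615 to 91148432), Ereg (91074617 to 91093649) and Spp1 (104435118 to 104441050) are on chromosome 5. Igf1 is on chromosome 10 (87858265 to 87937042), Tgfb1 on chromosome 7 (25687002 to 25705077) and Thbs1 on chromosome 2 (118111876 to 118127133). In GENCODE M21, exons of Edn1, Pdgfa, Ereg and Thbs1 share bases with a gene on the opposite strand and exons of Spp1 with Gm42793 on the same strand. Whether reads were counted by strand is not stated, so such reads could not be told apart. The partners of Pdgfa and Thbs1 in the table, 6330403L08Rik and Gm29233, held 2237 and 39 counts in all 40 libraries together.

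RefSeq promoter windows were at hand for 6 of the 10 genes. Those of Edn1 and Spp1, which rose with LPS, and of Tgfb1, whose level differed little between groups, are printed as the 250 bases before the RefSeq start site, 5′ to 3′ on the plus strand, with matches to the motifs searched in capitals. They are from GRCm38.p6 at chr13:42301226-42301475, chr5:104434861-104435110 and chr7:25686752-25687001. The deposited start of Edn1 lies upstream of its RefSeq start site, so 206 of the 250 bases of its window fall inside the gene as counted, against 0 for Spp1 and Tgfb1.
Edn1: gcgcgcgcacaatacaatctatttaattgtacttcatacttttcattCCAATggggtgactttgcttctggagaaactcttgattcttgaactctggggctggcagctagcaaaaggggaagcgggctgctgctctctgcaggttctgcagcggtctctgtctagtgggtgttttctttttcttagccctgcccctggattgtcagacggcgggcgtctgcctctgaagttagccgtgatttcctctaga
Spp1: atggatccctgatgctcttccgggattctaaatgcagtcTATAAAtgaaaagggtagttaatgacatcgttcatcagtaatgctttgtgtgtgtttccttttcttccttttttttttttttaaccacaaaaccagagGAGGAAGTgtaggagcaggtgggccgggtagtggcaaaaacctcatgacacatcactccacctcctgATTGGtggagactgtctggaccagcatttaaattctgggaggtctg
Tgfb1: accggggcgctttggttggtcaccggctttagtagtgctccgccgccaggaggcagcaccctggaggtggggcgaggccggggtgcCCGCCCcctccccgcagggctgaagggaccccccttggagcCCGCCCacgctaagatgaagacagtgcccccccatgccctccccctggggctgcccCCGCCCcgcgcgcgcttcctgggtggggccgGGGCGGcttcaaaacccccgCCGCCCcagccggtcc
The motifs searched on both strands were the TATA box TATAAA, the CCAAT box CCAAT, the GC box GGGCGG, an AP-1 site TGANTCA, a cyclic AMP response element TGACGTCA, a C/EBP-ATF site TGATGNAA, an NF-kB site GGGNNTTTC and a PU.1 site GAGGAAGT, and no 2 matches overlapped in the 3 windows. Edn1 held a CCAAT box at base −203 from the RefSeq start site, inside the gene as counted. Spp1 held a TATA box at −211, a PU.1 site at −113 and a CCAAT box at −46, and Tgfb1 held 5 GC boxes between −164 and −16. Of all 32851 RefSeq windows, 12.4% held the TATA box, 33.8% the CCAAT box, 32.7% the GC box, 6.75% the AP-1 site, 1.55% the cyclic AMP response element, 3.45% the C/EBP-ATF site, 3.72% the NF-kB site and 2.44% the PU.1 site. A match in these letters is a description and was not tested as a site.

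LPS was first compared with no treatment, which asks which of these ligands a TLR4 stimulus changes. Edn1, Hbegf and Spp1 rose in both genotypes, and no tested gene of the 8 fell past the threshold. That is 3 of 8 genes called in WT and 3 of 8 in NDI1, against 62.5% of all genes tested in WT and 62.7% in NDI1. Edn1 is among the called genes but passed the filter on low counts only through the groups given LPS, so it had to differ, and its call is no support. Edn1 was at 0 or 1 count in each untreated library, 2 counts in all 5 together for either genotype. With LPS it stood at 122, 123, 67.2, 145 and 105 CPM in WT mice 449, 452, 453, 496 and 520, and at 94.9, 79.9, 98.7, 120.1 and 136 CPM in NDI1 mice 447, 460, 461, 503 and 521. Pooled over the 5 mice, the ratio of LPS to untreated was 3973 in WT (95% exact interval 1099 to 32816) and 3411 in NDI1 (944 to 28173), intervals that cover counting error only. Every LPS library thus lay above every untreated one, which is given as a description with no p.

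Hbegf (ENSMUSG00000024486), on chromosome 18 from 36504929 to 36515805, went from 0.35 ± 0.32 CPM (SD, n = 5) untreated to 4.64 ± 2.11 with LPS in WT, a 13.5-fold rise (log2 fold change 3.76, SE 0.70, edgeR adjusted p = 1.6e-05). In NDI1 it went from 0.34 ± 0.32 to 5.14 ± 4.97 CPM, 15.2-fold (log2 3.92, SE 0.71, edgeR adjusted p = 9.4e-06). It was higher in 5 of 5 mice of each genotype and the groups did not overlap, although the NDI1 mice ranged from 1.02 to 13.0 CPM with LPS. Spp1 had the highest mean CPM of the 10 in each of the 8 groups. It stood at 553, 673, 881, 579.8 and 489 CPM in untreated cells of WT mice 449, 452, 453, 496 and 520 and at 1156, 1236, 1440.0, 1011 and 1152 with LPS, a 1.89-fold rise (log2 0.92, SE 0.19, edgeR adjusted p = 7.2e-05). The NDI1 means were 573 ± 105 and 1107 ± 181 CPM (log2 0.95, SE 0.19, edgeR adjusted p = 4.5e-05), with no overlap in either genotype.

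These LPS values depend on how libraries are scaled, since TMM factors were 0.70 to 0.90 with LPS and 1.13 to 1.37 without. With library totals alone, a setting added after the data were seen, the median of all genes moved by −0.78 in WT and −0.77 in NDI1 on the log2 scale. Spp1 then no longer passed (log2 0.15 in WT and 0.18 in NDI1, edgeR adjusted p = 0.51 and 0.42), while its log2 change stayed above the median of all genes. Hbegf passed under both scalings.

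The other genes moved less with LPS. Pdgfb averaged 58.1 ± 21.8 CPM untreated and 41.0 ± 9.02 with LPS in WT (log2 −0.50, SE 0.35, edgeR adjusted p = 0.22), and 59.4 ± 29.4 and 35.4 ± 16.9 in NDI1 (log2 −0.75, SE 0.35, edgeR adjusted p = 0.063). Igf1 averaged 440.1 ± 224 CPM untreated and 286 ± 123 with LPS in WT, and 430.1 and 257 CPM in NDI1 (log2 −0.62 and −0.74, edgeR adjusted p = 0.18 and 0.11). Both were lower in 5 of 5 mice of each genotype, and both fell past the threshold once the mouse was a block. The blocked log2 values were −0.45 and −0.74 for Pdgfb (edgeR adjusted p = 0.0026 and 8.2e-06) and −0.58 and −0.73 for Igf1 (8.9e-07 and 1.2e-08), which brings the count to 5 of 8 in each genotype where 72% and 72.4% of all genes passed. Igf1 in untreated WT cells ran from 171 CPM in mouse 453 to 731 in mouse 496.

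Pdgfa (log2 0.21 in WT, 0.05 in NDI1), Tgfb1 (0.07 and 0.03) and Thbs1 (−0.51 and −0.32) did not pass in either genotype. The sign of the Thbs1 values rested on 1 mouse in each genotype, as they were 0.29 without WT mouse 453 and 0.64 without NDI1 mouse 460, and Thbs1 was higher with LPS in 3 of 5 mice of each genotype. With the mouse as a block they were −0.32 and 0.12, and without mice 496 and 503 they were −0.94 and −0.83. Tgfb1 had group means of 338 to 373 CPM and single libraries between 261 and 439. Thbs1 overlapped between the groups, with WT mouse 453 at 759 CPM and NDI1 mouse 460 at 781 CPM untreated against 58.4 to 269 in the other 8. Areg had 2 counts untreated and 5 with LPS in WT, and 2 and 6 in NDI1, and Ereg had 0 and 2, and 0 and 3. Within mice Areg was higher with LPS in 4 of 5 and lower in 0 of 5 in each genotype, and Ereg was higher in 2 of 5 and lower in 0 of 5. The pooled ratio of LPS to untreated for Areg had a 95% exact interval of 0.74 to 47.4 in WT and 0.84 to 47.6 in NDI1, so counting error alone left its direction unsettled. With piericidin A present, LPS took Areg from 6 to 17 counts in WT (ratio 4.90, 95% exact interval 1.84 to 15.2, counting error only) and from 0 to 4 in NDI1. Ereg went from 1 to 21 counts in WT (ratio 36.3, 5.85 to 1503), with 18 of the 21 in mouse 496, and from 2 to 4 in NDI1. Neither gene was tested across mice.

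**Figure D1:**
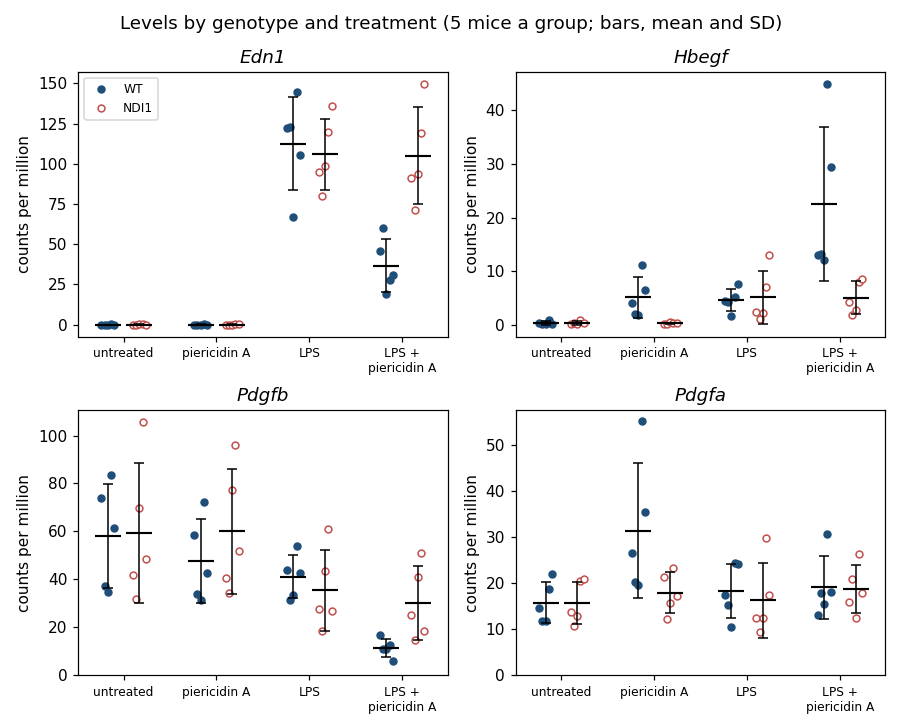
Levels in CPM of Edn1, Hbegf, Pdgfb and Pdgfa (linear axes) for untreated, piericidin A, LPS, and LPS with piericidin A. Filled blue points are the 5 WT mice, open red points the 5 NDI1 mice, and bars are the mean and SD. Edn1 averages 112 CPM with LPS and 36.8 with LPS and piericidin A in WT, and 106 and 105 in NDI1, while Hbegf is highest in WT with both, at 22.5 CPM.

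The LPS effect itself was then compared between genotypes, which asks whether NDI1 alters the response when complex I is free. It differed past the threshold for 0 of the 8 genes (0% of all genes tested passed in edgeR, 63 at an unadjusted p under 0.05 and 0 of the 8 among them, and DESeq2 called 0). The interval of the log2 difference was −0.51 to 0.58 for Spp1, −0.43 to 0.35 for Tgfb1 and −2.05 to 2.38 for Hbegf, so differences in Hbegf of several-fold could not be seen. NDI1 and WT without piericidin A gave 0 of 8 genes untreated and 0 of 8 with LPS (0% and 0% of all genes, with 39 and 141 at an unadjusted p under 0.05, and 0 by DESeq2). With LPS, Edn1 averaged 112 ± 29.0 CPM in WT and 106 ± 22.0 in NDI1, a log2 difference of −0.09 with an interval of −0.59 to 0.41.

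Piericidin A was next compared with no treatment in cells without LPS. In WT, Hbegf and Pdgfa rose, which is 2 of 8 genes where 14.8% of all genes tested passed. Hbegf stood at 0.408, 0.187, 0.0677, 0.874 and 0.190 CPM in untreated cells of WT mice 449, 452, 453, 496 and 520 and at 4.09, 2.02, 1.82, 11.1 and 6.53 CPM with piericidin A. The untreated values came from 1 to 11 counts a library and those with piericidin A from 26 to 127. Each treated library lay above each untreated one, a 14.9-fold rise (log2 3.90, SE 0.69, edgeR adjusted p = 0.00013). Pdgfa stood at 14.6, 11.6, 11.8, 18.6 and 22.0 CPM untreated and at 26.4, 20.2, 19.6, 55.1 and 35.5 CPM with piericidin A in the same mice, 1.99-fold higher (log2 0.99, SE 0.29, edgeR adjusted p = 0.019). It was higher in 5 of 5 mice, though the groups overlapped. Without WT mouse 496 the Pdgfa call was lost (log2 0.75, edgeR adjusted p = 0.12), as it was without mice 496 and 503 together (log2 0.75, edgeR adjusted p = 0.063).

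Spp1 and Thbs1 were also higher in 5 of 5 WT mice with piericidin A. Spp1 averaged 635 ± 152 CPM untreated and 919 ± 216 with the inhibitor (log2 0.53, SE 0.19, edgeR adjusted p = 0.051), and Thbs1 averaged 300.2 ± 267 and 687 ± 317 CPM (log2 1.19, SE 0.64, edgeR adjusted p = 0.22). Both passed with the mouse as a block, with log2 values of 0.53 and 1.37 (edgeR adjusted p = 2.9e-05 and 0.011), and so did a smaller fall of Igf1 (log2 −0.24, edgeR adjusted p = 0.032). The blocked count was 5 of 8, where 34.2% of all genes passed. For Thbs1 the mice differed widely, as WT mice 449, 452, 453, 496 and 520 stood at 233, 170.1, 759, 269 and 70.0 CPM untreated and at 864, 476, 1112, 676 and 305 CPM with piericidin A. Pdgfb (log2 −0.28, lower in 5 of 5 mice) and Tgfb1 (0.02) did not pass in either fit. Edn1 had 4 counts in all 5 WT libraries with piericidin A, all of them in mouse 496, Areg had 6 counts and Ereg 1.

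In NDI1 cells without LPS, piericidin A changed 0 of the 8 genes (0% of all genes passed in edgeR, 58 at an unadjusted p under 0.05, none of them among the 8, and DESeq2 called 0). Hbegf stood at 0.151, 0.285, 0.0812, 0.896 and 0.286 CPM untreated and at 0.141, 0.228, 0.463, 0.253 and 0.348 CPM with piericidin A in NDI1 mice 447, 460, 461, 503 and 521. These values came from 1 to 10 counts a library untreated and 2 to 7 with piericidin A. The libraries overlapped and 2 of 5 mice were higher (log2 −0.17, SE 0.93). Pdgfa averaged 15.7 ± 4.63 and 17.9 ± 4.37 CPM, and the interval of its log2 change, −0.41 to 0.79, reached into the range of the WT change.

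Tested directly, the piericidin A effect without LPS differed between genotypes past the threshold for 0 of the 8 genes, against 1.27% of all genes. The largest difference was that of Hbegf (log2 −4.07, SE 1.21, edgeR adjusted p = 0.088). With the mouse as a block 3 of 8 passed, where 8.96% of all genes did, namely Hbegf (log2 −3.97, edgeR adjusted p = 0.0014), Pdgfa (−0.73, 0.041) and Spp1 (−0.50, 0.011). Hbegf also passed in DESeq2 (adjusted p = 0.005) and with the compared libraries alone (edgeR adjusted p = 0.032).

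With piericidin A alone in both genotypes, Hbegf was 16.8-fold lower in NDI1 than in WT, 0.29 ± 0.12 against 5.12 ± 3.86 CPM (log2 −4.07, SE 0.70, edgeR adjusted p = 0.00015), and the groups did not overlap. The 5 NDI1 libraries together held 20 counts of Hbegf and the 5 WT libraries 306. Spp1 was 1.52-fold lower in NDI1, 605 ± 218 against 919 ± 216 CPM (log2 −0.60, SE 0.19, edgeR adjusted p = 0.041), with overlap of the groups. That is 2 of 8 genes where 7.8% of all genes passed. The Spp1 call was lost without WT mouse 452, 453, 496 or 520 and without NDI1 mouse 460, 461, 503 or 521, at edgeR adjusted p-values of 0.052 to 0.12, and without mice 496 and 503 together (0.16). Leaving out NDI1 mouse 460, with its high Thbs1, brought Thbs1 past the threshold (log2 −2.41, edgeR adjusted p = 0.013), and leaving out WT mouse 453 did so for Pdgfa (log2 −0.94, edgeR adjusted p = 0.044).

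**Figure D2:**
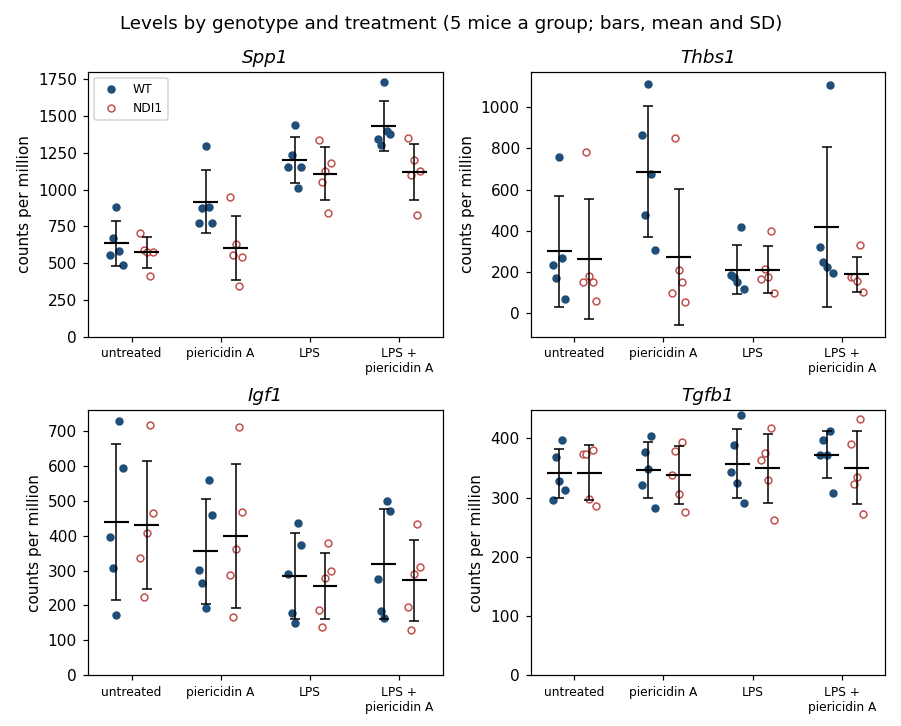
Levels in CPM of Spp1, Thbs1, Igf1 and Tgfb1 (linear axes) in the same 8 groups, with filled blue points for the 5 WT mice, open red points for the 5 NDI1 mice and bars for the mean and SD. Spp1 averages 635 CPM untreated and 1199 with LPS in WT, Thbs1 has single mice at 759 to 1112 CPM, and the group means of Tgfb1 stay within 338 to 373 CPM.

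The comparison from which the list was chosen is piericidin A in LPS-treated WT cells, given here as measured values. Edn1 in WT mice 449, 452, 453, 496 and 520 stood at 122, 123, 67.2, 145 and 105 CPM with LPS and at 46.0, 60.4, 18.9, 28.0 and 30.6 CPM with LPS and piericidin A. The highest value with the inhibitor was below the lowest without it, and the fitted level was 3.05-fold lower (log2 −1.61, SE 0.25). Within mice the log2 difference ran from −2.37 to −1.02. Edn1 with LPS and piericidin A still lay far above its level without LPS, at a ratio of 599 to piericidin A alone (95% exact interval 233 to 2201).

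Pdgfb in the same mice stood at 44.0, 31.4, 33.4, 53.8 and 42.7 CPM with LPS and at 16.6, 11.0, 11.1, 12.4 and 5.99 CPM with LPS and piericidin A. The groups did not overlap and the fitted level was 3.59-fold lower (log2 −1.84, SE 0.38). Without LPS the same mice had 31.3 to 72.3 CPM with piericidin A and 34.6 to 83.6 without it, so the low Pdgfb group is the one with both agents. The difference of the piericidin A effect with and without LPS in WT was −1.56 on the log2 scale (SE 0.51). On that difference 0 of 8 genes were called in the unblocked fit and 4 of 8 with the block, beside 4.75% and 17.4% of all genes, counts from which nothing is read since the choice of genes used them.

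Hbegf moved the other way. It stood at 4.49, 4.27, 1.67, 5.21 and 7.57 CPM with LPS and at 13.0, 13.2, 12.2, 44.9 and 29.4 CPM with LPS and piericidin A in WT mice 449, 452, 453, 496 and 520. The groups did not overlap, and the fitted level was 4.90-fold higher (log2 2.29, SE 0.54) with mice 496 and 520 well above the other 3. Hbegf was therefore highest in WT with both agents (22.5 ± 14.4 CPM), similar with either alone (4.64 ± 2.11 with LPS and 5.12 ± 3.86 with piericidin A, overlapping), and lowest untreated. In count, 3 of 8 genes passed the threshold unblocked and 4 of 8 with the block, beside 16.7% and 34.5% of all genes, and again nothing is read from these counts.

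Thbs1 went from 188, 178, 152, 417 and 121 CPM with LPS to 319.6, 248, 222, 1104 and 197 CPM with both agents in WT mice 449, 452, 453, 496 and 520 (log2 0.99, SE 0.64), higher in each mouse and with mouse 496 well above the rest. Without mouse 496 the log2 value was 0.63. Spp1 was higher in 5 of 5 WT mice as well, 1199 ± 157 against 1431 ± 172 CPM (log2 0.25, SE 0.19). Pdgfa (log2 0.07), Tgfb1 (0.06) and Igf1 (0.16) had groups that overlapped, with values of both signs among the mice. Areg had 5 counts with LPS and 17 with both agents in WT, at 0, 3, 0, 8 and 6 counts in the 5 mice with both. Ereg had 2 and 21 counts, and 18 of the 21 were in mouse 496. These are few counts, and neither gene was found in every mouse.

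In LPS-treated NDI1 cells the groups with and without piericidin A overlapped for each of the 8 genes. How many of all genes did so was not counted, and nothing is read from this. Edn1 in NDI1 mice 447, 460, 461, 503 and 521 stood at 94.9, 79.9, 98.7, 120.1 and 136 CPM with LPS and at 91.4, 71.3, 93.8, 119 and 149.7 with both agents (log2 −0.01, SE 0.25). Pdgfb stood at 27.8, 18.3, 43.5, 60.9 and 26.6 CPM and at 25.3, 14.6, 41.1, 50.8 and 18.3 CPM (log2 −0.24, SE 0.36), overlapping groups in which each of the 5 mice was nonetheless lower with the inhibitor. Hbegf averaged 5.14 ± 4.97 and 5.09 ± 3.00 CPM (log2 −0.02, SE 0.54). Beside 0% of all genes in this comparison (127 at an unadjusted p under 0.05, and 0 by DESeq2), 0 of 8 genes were called. Areg had 6 and 4 counts, and Ereg 3 and 4.

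The effects differed between genotypes by 1.60 for Edn1 (SE 0.35), 1.60 for Pdgfb (SE 0.52) and −2.32 for Hbegf (SE 0.76) on the log2 scale, NDI1 minus WT. Unblocked 1 of 8 genes was called, Edn1, and with the block 3 of 8, beside 0.979% and 9.51% of all genes, counts from which nothing is read since the genes were chosen on these libraries. The Edn1 difference was 1.41 without mice 496 and 503. Within mice the piericidin A difference of Edn1 ran from −2.37 to −1.02 in WT and from −0.16 to 0.14 in NDI1, ranges that do not meet. For Hbegf it ran from 1.495 to 3.06 in WT and from −0.60 to 0.86 in NDI1, and for Pdgfb from −2.80 to −1.39 and from −0.54 to −0.08. With LPS and piericidin A, NDI1 against WT cells held 105 ± 30.2 against 36.8 ± 16.4 CPM of Edn1 (log2 1.51, SE 0.25), 30.0 ± 15.4 against 11.4 ± 3.80 of Pdgfb (1.39, SE 0.38) and 5.09 ± 3.00 against 22.5 ± 14.4 of Hbegf (−2.16, SE 0.53). That is 3 of 8 genes beside 12% of all genes, with no reading of the count. The comparisons with LPS share libraries and are not independent of each other.

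**Figure D3:**
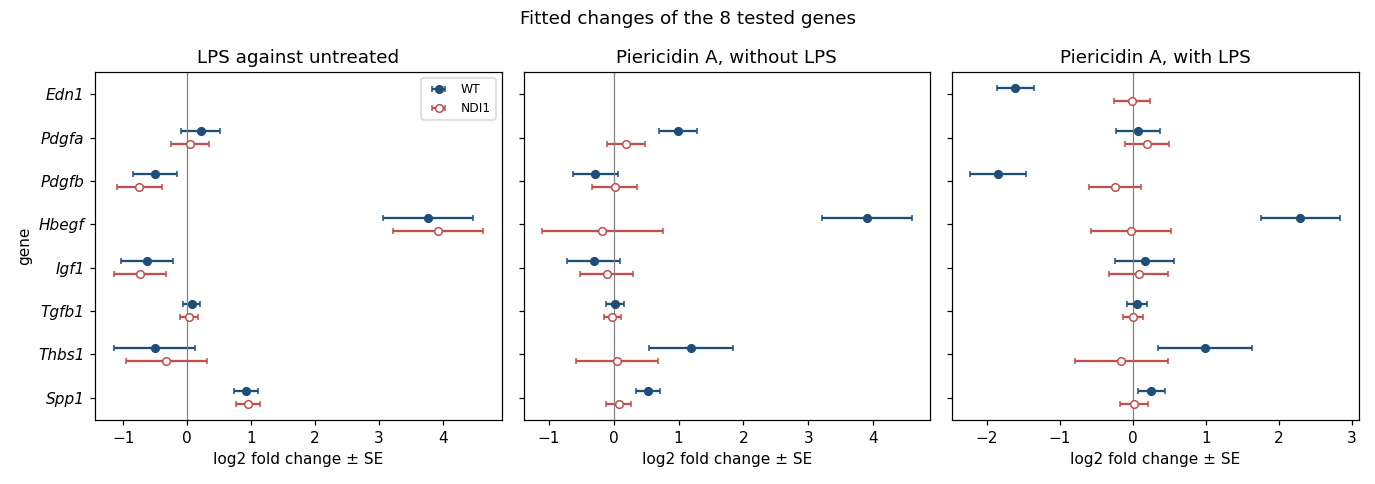
Fitted log2 fold change ± SE (x axes) of the 8 tested genes (y axis) for LPS, for piericidin A without LPS and for piericidin A with LPS, in WT (filled blue) and NDI1 (open red), 5 mice a group. Edn1 is left out where untreated or piericidin A libraries set its level, as it had few or no counts there. Hbegf lies at 3.90 and 2.29 for piericidin A in WT and at −0.17 and −0.02 in NDI1, and Edn1 and Pdgfb lie at −1.61 and −1.84 in WT with LPS.

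**Figure D4:**
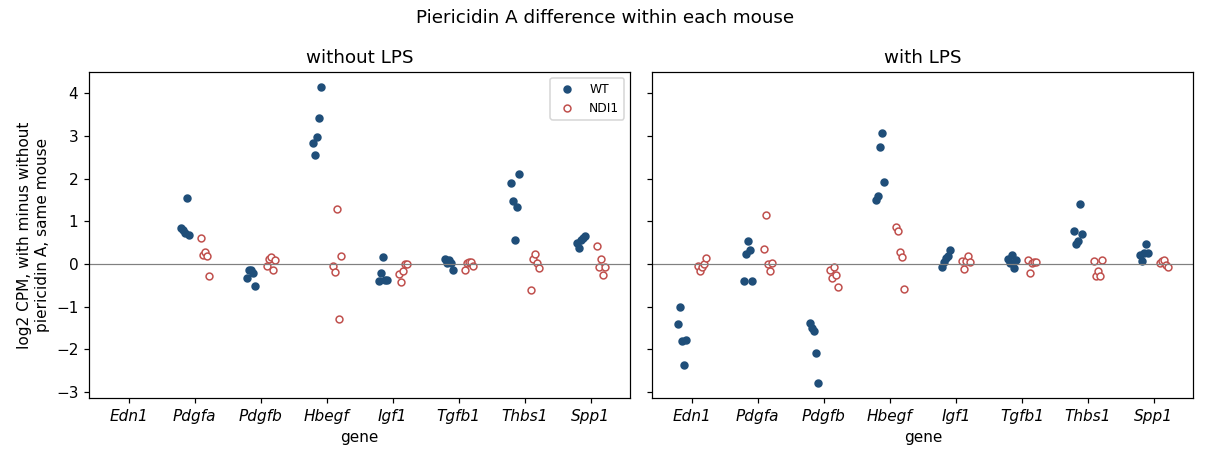
Difference in log2 CPM between the cells of one mouse with and without piericidin A (y axes), for the 8 tested genes (x axes), without LPS on the left, where Edn1 is left out for its few counts, and with LPS on the right. Each point is a mouse, filled blue for WT and open red for NDI1, and 0 is no difference. The WT points of Hbegf lie between 2.57 and 4.16 without LPS, and those of Edn1 between −2.37 and −1.02 with LPS.

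Sums of marker lists were also compared between the treatments. The 8 T cell and innate lymphoid markers, led by Il7r, summed to 127 to 212 CPM untreated and 382 to 490.5 with piericidin A in WT, with Ncr1 at no more than 3 counts in every library. With LPS they summed to 60.0 to 105 CPM and with LPS and piericidin A to 193 to 302 in WT, with no overlap, and to 66.8 to 110.1 and 79.6 to 154 in NDI1, with overlap. This sum thus moved in the comparison in which Edn1, Pdgfb and Hbegf differed. Only 2 of the 8 markers had enough counts to be tested, so the sum is not a measure of a cell type. Piericidin A in WT raised 1 of the 2 past the threshold, without and with LPS, beside 14.8% and 16.7% of all genes. With LPS in WT 1 was called higher and 1 lower, beside 62.5% of all genes. The 8 mast cell and basophil markers, led by Hdc, summed to 0.33 to 2.86 CPM untreated and 23.0 to 74.4 with LPS in WT, with Mcpt4, Tpsb2, Tpsab1 and Cma1 at no more than 3 counts throughout. Only 1 of these 8 had enough counts to be tested. It was called higher with LPS in WT (log2 5.57), beside 62.5% of all genes, so the sum does not stand for the list. The 8 neutrophil markers summed to 54.3 to 1167 CPM with LPS (median 79.3) in WT. With LPS and piericidin A they summed to 111 to 3138 CPM (median 181), with overlap. Of the 7 tested, 0 were called in this comparison, beside 16.7% of all genes. The 9 fibroblast and stromal markers summed to 1.90 to 38.3 CPM in untreated WT libraries and 1.88 to 72.1 with piericidin A, and the 8 endothelial markers to 40.5 to 155 and 53.4 to 157, with Emcn and Cldn5 at no more than 3 counts in every library. The part of these cell types in the results was not tested.

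The other genes of these pathways were counted by fixed lists. Of 15 other ligands of the same families (Pdgfc, Tgfa, Igf2 and the like) only 3 had enough counts to be tested. Pdgfc fell with LPS, to 10.4 ± 5.46 CPM from 25.0 ± 13.2 in WT (log2 −1.27, SE 0.41, edgeR adjusted p = 0.0076), and the NDI1 means were 25.9 ± 7.02 and 7.52 ± 3.40 (log2 −1.79). With LPS 1 of the 3 fell in WT and 2 of 3 in NDI1, where 62.5% and 62.7% of all genes passed, and 0 of 3 rose. With piericidin A in WT without LPS 0 of 3 passed in edgeR, where 14.8% of all genes did.

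Of 25 receptors for the 10 ligands, 22 were tested. With LPS in WT 10 rose and 4 fell (median log2 0.75 against −0.01 over all genes), and in NDI1 9 rose and 6 fell, where 62.5% and 62.7% of all genes passed. The rises were led by integrin subunits. Itgb8, part of the integrin that releases latent Tgfb1, went from 0.49 to 123 CPM in WT (log2 7.87, SE 0.44, edgeR adjusted p = 1.1e-17), Itga5, of the fibronectin receptor, from 199.6 to 923 CPM (log2 2.21) and Itgav, which pairs with several beta chains and binds osteopontin, from 159 to 715 CPM (log2 2.17). The insulin receptor Insr (log2 −1.51), the type 1 TGF-beta receptor Tgfbr1 (−1.24) and Itgb5 (−0.70) fell. With piericidin A in WT without LPS 2 rose and 4 fell (median −0.01, all genes 0.00), where 14.8% of all genes passed. Cd44, the osteopontin and hyaluronan receptor, rose from 458 to 680.3 CPM (log2 0.57, SE 0.11, edgeR adjusted p = 0.00044), while Itga4 fell from 293 to 139.6 CPM (log2 −1.07, edgeR adjusted p = 0.0013) and Erbb3 from 4.38 to 2.14 (log2 −1.01, edgeR adjusted p = 0.014). In NDI1 0 of the 22 passed with piericidin A, where 0% of all genes did, and the genotype difference passed for 0 of 22, where 1.27% of all genes did.

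Of 26 proteins that process or bind these ligands, 19 were tested. With LPS 8 rose and 3 fell in each genotype (median log2 0.58 in WT, all genes −0.01), where 62.5% of all genes passed in WT and 62.7% in NDI1. Rhbdf2, the iRhom that carries Adam17 to the cell surface, rose from 60.5 to 571 CPM in WT (log2 3.24, SE 0.22, edgeR adjusted p = 3.7e-15) and the protease Mmp14 from 151 to 894 CPM (log2 2.57). Thrombomodulin, Thbd, fell by 2.98 on the log2 scale, Igfbp4 by 0.85 and the sheddase Adam10 by 0.59. With piericidin A in WT without LPS 2 of the 19 rose and 1 fell (median log2 0.28, all genes 0.00), where 14.8% of all genes passed, among them Rhbdf2 (log2 0.80, edgeR adjusted p = 0.0079), which rose, and Thbd (log2 −1.08, edgeR adjusted p = 0.02), which fell. In NDI1 0 of 19 passed, as did 0% of all genes.

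Of 21 other secreted growth factors 17 were tested, and 9 rose and 5 fell with LPS in WT (7 and 6 in NDI1), where 62.5% and 62.7% of all genes passed. The macrophage growth factor Csf1 went from 11.9 to 249 CPM (log2 4.39, SE 0.33, edgeR adjusted p = 3.2e-14), the activin A subunit Inhba from 1.03 to 9.63 (log2 3.22) and Nampt from 244 to 1235 (log2 2.34), while Vegfa (log2 −1.11), Hgf (−1.07) and Vegfb (−0.90) fell. With piericidin A in WT without LPS 7 of the 17 rose and 0 fell (median log2 0.58, all genes 0.00), where 14.8% of all genes passed. Osm, oncostatin M, rose from 4.43 to 40.2 CPM (log2 3.18, SE 0.32, edgeR adjusted p = 4.7e-09) and Inhba from 1.03 to 5.46 (log2 2.39, SE 0.31, edgeR adjusted p = 1.1e-06). In NDI1 0 of 17 passed, as did 0% of all genes, with Osm at 4.75 CPM untreated and 5.11 with piericidin A. The difference between genotypes passed for 2 of the 17, where 1.27% of all genes passed. They were Osm (log2 −3.07, SE 0.44, edgeR adjusted p = 3.5e-05) and Vegfa (−1.73, SE 0.32, 0.0018).

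The genes whose log2 CPM was most like that of each of the 8 over the 40 libraries were, as a description, Ccdc25 (Pearson r 0.995) and Il15 (0.993) for Edn1, Sphk1 (0.950) and Il17ra (0.947) for Hbegf, Id3 (0.919) for Pdgfb, and Mpc1 (0.906) and Rgs1 (0.906) for Spp1. Those of Igf1 were A530064D06Rik (0.886) and Nxpe5 (0.873), those of Tgfb1 Cyp4f18 (0.845) and Mgrn1 (0.803), those of Thbs1 Cytip (0.836) and Actn4 (0.733), and those of Pdgfa Clta (0.833) and Snx3 (0.799). The 40 points share mice and treatments and are not independent, and no p is given.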

How the data were processed

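Poly(A) RNA was sequenced from BMDMs in 40 libraries. Per the study's methods and the submitters' processing notes, reads were demultiplexed with bcl2fastq, trimmed with Trimmomatic, aligned to mm10 with STAR and counted over exons with HTSeq, and the authors deposited raw counts for 43430 genes. The annotation release and strand setting are not given in the sources used here. A column of reads assigned to no library (1 column) was not used for any comparison.

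Groups came from the labels. Symbols were matched from Ensembl IDs for 42462 genes, and positions were compared with GENCODE M21. Counts were fitted in edgeR 4.0.16 (R 4.3.3) with filterByExpr, TMM factors, 1 mean per group of all 40 libraries and the quasi-likelihood F test, which kept 11853 genes, with Benjamini-Hochberg adjustment over all of them. The SE is the log2 fold change divided by the square root of F. CPM uses TMM-scaled totals, and log2 CPM a prior count of 2. The script was tested on simulated counts. Members and lists were chosen with earlier results of these data known. Named genes of the pathway lists are at most 3 rises and 3 falls with LPS and 2 and 2 with piericidin A in WT, in order of size, where the mean log2 CPM reached 1. Some genes that this rule or the search for like patterns picked are not reported here.

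The numbers in the labels mark the mouse, and residuals of the same mouse correlated at a mean r of 0.45 (60 pairs, 0.099 to 0.77) against −0.11 between mice, so the mouse block pairs the samples. Alternatives were DESeq2 1.42.0, its size factors, other filters, the compared libraries alone, the block, library totals and leaving out mice. Library totals were 6950748 to 13552070 counts. Replicates are separate mice.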

Additional observations from a re-analysis of the deposited data

Results flagged for a closer look

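Among 63 combinations of a gene and a group of 5 libraries with more than 3 counts in a library, 11 held a library apart from the other 4 by over 0.71 of the group's range (Dixon's test). For independent groups of normal values about 1 in 20, or 3.1, would be flagged. The CPM were on a linear scale, each flagged library was the highest of its group, and mice recur. No excess is therefore read from the 11. In WT mouse 496 the flagged values were Edn1 with piericidin A (0.35 CPM, from 4 counts), Pdgfa with LPS and piericidin A (30.6 CPM), Ereg with LPS and piericidin A (2.28 CPM), and Thbs1 with LPS (417 CPM) and with LPS and piericidin A (1104 CPM). In NDI1 mouse 503 it was untreated Hbegf (0.90 CPM). In WT mouse 453 they were untreated Thbs1 (759 CPM), and Spp1 with piericidin A (1294 CPM) and with LPS and piericidin A (1731 CPM). In NDI1 mouse 460 they were Thbs1 untreated (781 CPM) and with piericidin A (851 CPM).

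The piericidin A effect on Edn1 in LPS-treated cells differed between genotypes by 1.60 on the log2 scale, in the comparison from which the genes were chosen, and is given with no test.

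Reads that were assigned to no library, which no comparison used, held more than 3 counts of 10 of the 10 genes. They held 784 counts of Ereg, 97 of Areg and 909 of Hbegf, where the 40 libraries together held 33 of Ereg, 42 of Areg and 1830 of Hbegf. The origin of these unassigned reads is not known here.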

How the results depend on the processing

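Over the alternatives, Hbegf with LPS, Hbegf with piericidin A in WT without LPS and Hbegf between genotypes with piericidin A kept their direction and their side of the threshold wherever they were tested. Counts of called genes moved as follows. Those for both agents, for the genotype difference with LPS and for the WT difference with and without LPS come from the libraries on which the genes were chosen, so they are a description and nothing is read from them. With the mouse as a replicate block, 5 genes passed with LPS in WT, 5 with LPS in NDI1 and 5 with piericidin A in WT without LPS, 3 for the genotype difference without LPS and 3 with LPS, 4 for WT given both agents against LPS, and 4 for the difference with and without LPS in WT. Beside these stood 72%, 72.4%, 34.2%, 8.96%, 9.51%, 34.5% and 17.4% of all genes, in the same order. With at least 10 counts in every library, which drops Edn1 and Hbegf, 1 passed with LPS in WT and 2 in NDI1, 1 with piericidin A in LPS-treated WT, 1 between genotypes with piericidin A, 1 between genotypes with both agents, and 0 for the genotype difference with LPS. Among all genes kept by that filter 5871, 5850, 1759, 891, 1233 and 110 passed, in the same order. With the compared libraries alone 4 passed with LPS in each genotype, 1 for the genotype difference without LPS, 0 for that with LPS and 1 between genotypes with piericidin A. Of all 11853 genes, 7590 and 7427 then passed with LPS in WT and NDI1. The genotype differences without and with LPS passed for 198 and 41 of all genes, and the genotypes with piericidin A for 447. DESeq2 gave 4 with LPS in NDI1, 3 with piericidin A in WT without LPS, 1 for the genotype difference without LPS and 1 for the WT difference. Its calls over all genes were 7515, 2161, 294 and 783, in the same order. With no filter on low counts 1 passed between genotypes with piericidin A, beside 657 of all genes in that fit.

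Leaving out 1 mouse in turn gave 1 to 3 genes with piericidin A in WT without LPS, beside 795 to 1801 of all genes tested. Between genotypes with piericidin A it gave 1 to 2, beside 588 to 1119 of all genes. The next 2 counts are from the libraries of the choice, and nothing is read from them. For the genotype difference with LPS it was 0 to 1 (0 without WT mouse 496 or 520 or NDI1 mouse 461), beside 27 to 255 of all genes. Between genotypes with both agents it was 2 to 3, beside 742 to 1786. For LPS, each fit without 1 mouse gave 3 genes in either genotype, beside 6720 to 7443 of all genes in WT and 6739 to 7559 in NDI1.

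A pair of settings was chosen after seeing the data. Without mice 496 and 503, 1 gene passed with piericidin A in WT without LPS, 1 between genotypes with piericidin A and 0 for the genotype difference with LPS. Over all genes 908, 457 and 18 passed there, against 1759, 924 and 116 in the main fit. With library totals, 6 genes passed with LPS in WT and 6 in NDI1 and 1 between genotypes with piericidin A. Of all 11853 genes tested, 9596, 9574 and 1390 passed with library totals, in the same order. In that setting Pdgfa (log2 −0.59 in WT and −0.74 in NDI1) and Tgfb1 (−0.72 and −0.74) were lower with LPS instead of slightly higher, where the median of all genes was −0.78 and −0.77. The setting moves all genes by construction. The other causes were not tested.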
